A study of Mus musculus with 8 samples.

Results

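Heart tissue of mice given the nanocage iFTn-R4 is compared here with that of mice given the nanocage iFTn-M4, over all 17788 genes of the table that holds the nanocage libraries. The comparison uses 4 of the 8 samples of the series, 2 libraries for each nanocage, and takes in the 1093 genes of that table that are absent from the table of the PBS libraries. The series title describes engineered protein nanocages that act as nanozymes, enzyme-like particles, and remove superoxide inside cells. Its messenger RNA, selected with oligo-dT, came from mouse hearts after ischemia-reperfusion, in which blood flow to the muscle is stopped and then restored. Both groups had the ischemia-reperfusion injury and both received 2 doses of 2.5 mg/kg protein every other day, with RNA taken from the injured heart tissue after 3 days. The PBS and iFTn-MR4 groups, also 2 libraries each, had the same injury and sampling time. The iFTn-MR4 group received 2 doses of 2.5 mg/kg protein, and the PBS group also had 2 doses. The labels give no strain, sex or age and do not say what the letters M, R and MR stand for, so the groups are called by their labels. Nor do they state that replicate libraries came from separate animals, and p-values here measure only a spread between samples that may be technical.

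Reperfused heart muscle is known to draw in blood-borne monocytes and neutrophils, which later give way to macrophages that clear dead cells. Interferon gamma, made by lymphocytes, acts through its receptor on interferon-stimulated genes. Among these are the immunity-related GTPases and guanylate-binding proteins, which assemble on the membranes of vacuoles that hold microbes, and the genes of antigen presentation on MHC class I and class II molecules. Promoters of such genes can hold short elements known as GAS, and the interferon regulatory factors (IRFs) bind the interferon-stimulated response element, ISRE.

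The 4 libraries held 13908143 to 15244434 expected counts each, and 15878 to 16047 genes had a count. Alpha myosin heavy chain, Myh6, took 1.17% to 2.61% of them and was the gene with the most counts in every library, and the contractile genes Myl2, Actc1 and Tnni3 were abundant, as the heart label calls for. The atrial genes Myl7, at 2 to 27 counts, and Sln, at 0 to 2 counts, were at or near 0 in these 4 libraries, and the adult skeletal myosin gene Myh4 was at 0. The iFTn-R4 replicates differed more from each other than the iFTn-M4 replicates, with a chi-square of 16.1 against 6.38 per degree of freedom over genes. Both iFTn-R4 libraries lay at one end of the first principal component of the 6 nanocage libraries, which held 53% of the variance, with scores of 34.3 and 28.3 against -0.0761 and -9.29 for iFTn-M4. The second component, with 19%, set the iFTn-R4 replicates apart at -8.74 and 21.8. Values below are counts scaled to the library, CPM, on library sizes scaled by the trimmed mean of M-values (TMM), replicate 1 before replicate 2, and log2 fold changes are iFTn-R4 minus iFTn-M4 with their standard error. On this scale the 7 tested atrial markers, Nppa among them, summed to 1180 CPM in iFTn-R4 and 1060 CPM in iFTn-M4. The 5 tested skeletal muscle markers summed to 1160 to 1250 CPM in iFTn-R4 and 1800 to 1840 CPM in iFTn-M4.

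Of 13846 genes tested, 361 were higher and 277 lower in iFTn-R4 at an adjusted p under 0.05 in edgeR's quasi-likelihood test, together 4.61%, of which 2.61% were higher and 2.0% lower. The median absolute log2 fold change of these 638 genes was 0.63, and 110 of the higher and 30 of the lower genes differed by more than 2-fold. The split depends on the scaling. With library size alone it was 456 higher and 185 lower, and with limma on log2(TPM + 1), a scale of transcript abundance, it was 399 higher and 103 lower. Scaling by library size alone moved the median of all genes from 0.00 to 0.05 and TPM moved it to 0.07. Both iFTn-R4 libraries lay beyond both iFTn-M4 libraries for 50.5% of tested genes, and above them for 25%. The rule that named genes required such separation of those that passed, so their lack of overlap is no further support. Counts of list members called below stand beside 4.61% over all genes, and no test of a list was run. Leaving out iFTn-M4 replicate 1 left 89 genes past the threshold and leaving out iFTn-M4 replicate 2 left 32, whereas 949 passed without iFTn-R4 replicate 1 and 1490 without iFTn-R4 replicate 2. The third nanocage enters through the estimate of spread, and 260 and 254 genes passed without its replicate 1 and replicate 2. In total 31 genes passed in all 6 of these fits, 27 higher and 4 lower.

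**Figure D1:**
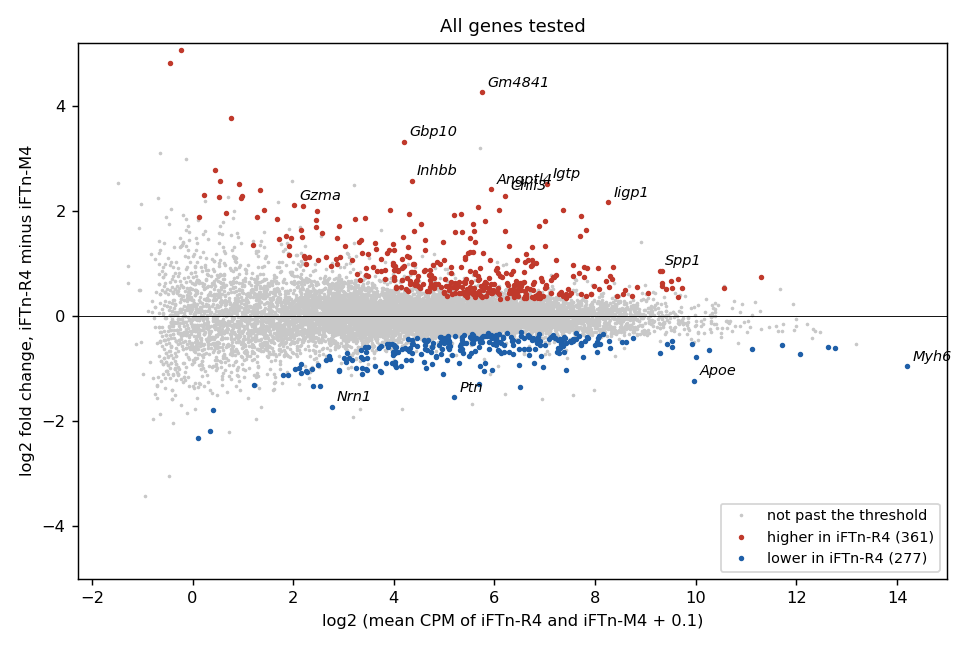
Log2 fold change of iFTn-R4 over iFTn-M4 (vertical axis) against the log2 mean level in CPM (horizontal axis) for the genes tested, with 361 genes past the threshold in red above 0 and 277 in blue below 0. Labelled genes are described in the text, and 3 genes lie outside the vertical axis, each at 0 in both libraries of 1 group, with 1 of them past the threshold.

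The 31 genes that passed whichever library was left out span several of the groups described below. Lymphoid, myeloid and interferon genes among the 27 higher were Igtp, Iigp1, Irgm1, Irgm2, Gbp6, Irf7, H2-Q6, Slfn4, Itgal, Plac8, Ly6c2 and Ccl7. Secreted factors and matrix enzymes were Inhbb, Fstl3, Pgf, Sema3f, Plau, Adamts4 and Tgm2. Wars, the tryptophanyl-tRNA synthetase, was at 131 and 145 CPM in iFTn-R4 and 63.5 and 68.8 CPM in iFTn-M4. Upp1, which splits uridine, was at 19.8 and 21.8 CPM against 8.18 and 9.33 CPM and Uck2, which phosphorylates it, at 139.7 and 138 CPM against 66.9 and 77.7 CPM. For each of these 3 genes both iFTn-R4 libraries lay above both iFTn-M4 libraries. Trp53i11 and the unnamed genes Gm4841, F830016B08Rik and 3300002I08Rik were also in the higher set. The 4 lower genes were Apoe, the transferrin gene Trf, the lysozyme gene Lyz1 and the carboxylesterase gene Ces1d, and Trf stood at 66.3 and 56.9 CPM in iFTn-R4 and 118 and 117 CPM in iFTn-M4. Names in this paragraph were chosen for this outcome after the values were seen.

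All 15 interferon gamma inducible GTPases that could be tested were higher in iFTn-R4, with a median log2 fold change of 1.72 beside 0.00 over all genes. Igtp (Irgm3), an immunity-related GTPase at chromosome 11, bases 58199556 to 58207592 of GRCm38.p6, was at 231 and 219 CPM in iFTn-R4 and 44.6 and 33.9 CPM in iFTn-M4. This is a log2 fold change of 2.52 ± 0.13, or 5.73-fold (edgeR adjusted p = 9.70e-05), and the groups were far apart. Irgm2, a regulator of the same family, was at 310.4 and 353 CPM in iFTn-R4 and 98.4 and 78 CPM in iFTn-M4 (1.91 ± 0.13, edgeR adjusted p = 0.000348). Irgm1 stood at 178 and 190.1 CPM against 88.3 and 58.1 CPM, with the iFTn-M4 replicates differing more than the iFTn-R4 replicates. Iigp1, an effector that coats vacuoles, was at 446 and 559 CPM in iFTn-R4 and 115 and 109 CPM in iFTn-M4 (2.17 ± 0.12, edgeR adjusted p = 9.70e-05). Per transcript length it had the highest level of the 15 in iFTn-R4, with TPM values of 267 and 322, against 63.1 and 59.8 in iFTn-M4.

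In the guanylate-binding protein family the largest ratio was that of Gbp10, at 18.9 and 47.2 CPM in iFTn-R4 and 3.09 and 3.53 CPM in iFTn-M4 (3.31 ± 0.42, edgeR adjusted p = 0.0067). Gbp6 was at 212 and 315 CPM in iFTn-R4 and 65.9 and 64.3 CPM in iFTn-M4 (2.02 ± 0.16, edgeR adjusted p = 0.0012) and Gbp2 at 117 and 175 CPM against 73.4 and 66.5 CPM. In all 3 genes iFTn-R4 replicate 2 was the highest library. The smallest difference of the 15 was in Gbp3, at 88.5 and 122 CPM against 73.2 and 59.2 CPM (0.67 ± 0.15, edgeR adjusted p = 0.046). Gbp4, Gbp6, Gbp8, Gbp9, Gbp10, Iigp1 and the paralogs Tgtp1 and Tgtp2 carry counts that were split between near-identical copies, so their single values are uncertain. Without iFTn-M4 replicate 1, 5 of the 15 passed, and 5 passed without iFTn-M4 replicate 2, with medians of 1.74 and 1.61. Those 5 were Iigp1, Igtp, Irgm2, Gbp6 and Irgm1 in both fits. The gene with the lowest p of all, the predicted gene Gm4841, was at 110.0 and 93.7 CPM in iFTn-R4 and 5.38 and 5.25 CPM in iFTn-M4 (4.26 ± 0.13, edgeR adjusted p = 4.27e-06). F830016B08Rik was at 79.5 and 84.1 CPM against 19.9 and 18.8 CPM. The files give neither of these IDs a function, and both were named after their values were seen.

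To show where interferon elements lie, upstream sequence is printed for 6 of the GTPases with an entry and for the interferon-response genes Isg15 and Ifit3. It runs 5′ to 3′ up to the base before the RefSeq start, from RefSeq on GRCm38.p6, and capitals mark matches on either strand to the ISRE core GAAANNGAAA or the GAS letters TTCNNNGAA. The regions are chr11:58199436-58199555 (+), chr11:58214857-58214976 (+), chr11:48992247-48992366 (-), chr11:48871421-48871540 (-), chr3:142620543-142620662 (+), chr3:142530216-142530335 (+), chr4:156200819-156200938 (-) and chr19:34583369-34583528 (+), in the order of the lines.
Igtp: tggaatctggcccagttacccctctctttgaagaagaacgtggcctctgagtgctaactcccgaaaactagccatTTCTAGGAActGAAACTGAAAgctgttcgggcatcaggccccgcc
Irgm2: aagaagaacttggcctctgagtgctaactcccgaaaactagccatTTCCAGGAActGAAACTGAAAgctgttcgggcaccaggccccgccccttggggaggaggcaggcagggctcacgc
Tgtp1: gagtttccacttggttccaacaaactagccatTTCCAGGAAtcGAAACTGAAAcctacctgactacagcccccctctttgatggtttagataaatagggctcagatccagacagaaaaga
Irgm1: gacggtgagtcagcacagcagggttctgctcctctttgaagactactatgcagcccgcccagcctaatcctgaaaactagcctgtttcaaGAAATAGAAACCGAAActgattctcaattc
Gbp2: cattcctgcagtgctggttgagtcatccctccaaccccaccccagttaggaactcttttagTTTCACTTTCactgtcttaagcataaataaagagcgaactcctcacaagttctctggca
Gbp7: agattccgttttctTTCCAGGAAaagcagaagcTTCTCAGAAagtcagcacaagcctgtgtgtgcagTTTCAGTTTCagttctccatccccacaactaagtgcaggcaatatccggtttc
Isg15: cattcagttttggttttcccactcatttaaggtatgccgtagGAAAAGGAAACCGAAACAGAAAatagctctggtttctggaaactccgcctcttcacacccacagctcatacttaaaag
Ifit3: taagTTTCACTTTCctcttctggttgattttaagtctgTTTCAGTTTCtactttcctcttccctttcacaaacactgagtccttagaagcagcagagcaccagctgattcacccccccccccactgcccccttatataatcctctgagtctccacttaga

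In Igtp, Irgm2 and Tgtp1 a GAS match was followed, 2 bases on, by an ISRE core match. These pairs began 45, 75 and 88 bases before the start. Irgm1 held overlapping ISRE matches and no GAS match, Gbp2 held an ISRE match from 59 to 50 bases before its start, and Gbp7 held 2 GAS matches upstream of its ISRE match. Within the 250 bases before the start, an ISRE core was found in all 9 of the 15 GTPases with a promoter entry and in 3.32% of the 11013 tested genes with one. GAS letters were found in 6 of the 9 and in 7.28% of all. Of the genes called higher in iFTn-R4, 11.2% of 267 held an ISRE core, and of those called lower 2.4% of 208. The 9 GTPases are among these 267. Of 16 MHC class I presentation genes with an entry, 2 held an ISRE core and 2 held GAS letters. Of the 25 interferon-response genes with an entry, 9 held an ISRE core. Bst2, one of these, passed the test between the nanocages, and the other 8, among them Isg15 and Ifit3, did not. A match is a description of letters and not a bound site.

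Genes of MHC class I presentation were higher in 13 of 19 cases and lower in 0, with a median log2 fold change of 0.54. Nlrc5, the transactivator of class I genes, was at 70.3 and 82.9 CPM in iFTn-R4 and 35.7 and 30.6 CPM in iFTn-M4 (1.21 ± 0.12, edgeR adjusted p = 0.0031). Tap1, one of the peptide transporter subunits, was at 114 and 123 CPM in iFTn-R4 and 62.4 and 51.4 CPM in iFTn-M4 (1.06 ± 0.11, edgeR adjusted p = 0.0034). Both iFTn-R4 libraries lay above both iFTn-M4 libraries in each. B2m, the light chain, was at 854 and 929.7 CPM against 585 and 539.9 CPM, and the heavy chain genes H2-K1 and H2-D1 at 811 and 742 CPM against 505 and 503 CPM and at 999 and 1006 CPM against 694 and 684 CPM. Nonclassical chains H2-Q6 and H2-Q7 had log2 fold changes of 1.04 ± 0.10 and 1.21 ± 0.13, on counts split among near-identical copies. The immunoproteasome subunits Psmb8 and Psmb9 passed at 0.54 and 0.76, whereas Psmb10 at 0.18, Tap2 at 0.36 and Erap1 at 0.33 did not pass. Constitutive proteasome genes were called in 0 of 31 cases by edgeR and 0 by DESeq2, with 2 at an unadjusted edgeR p under 0.05 and a median of 0.05. Without iFTn-M4 replicate 1, 4 class I genes passed, and without iFTn-M4 replicate 2 only H2-Q6 did, with medians of 0.55 and 0.53. Without iFTn-MR4 replicate 2, 8 passed.

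MHC class II genes lay on the other side of 0. None of 10 passed in edgeR or DESeq2, 6 had an unadjusted edgeR p under 0.05, and the median log2 fold change was -0.52. H2-Eb1, a class II chain, was at 52.1 and 24.3 CPM in iFTn-R4 and 81.9 and 82.5 CPM in iFTn-M4 (-1.10 ± 0.26, edgeR adjusted p = 0.054), and Cd74, the invariant chain, at 166 and 88.1 CPM in iFTn-R4 and 219 and 225 CPM in iFTn-M4 (-0.80 ± 0.23, edgeR adjusted p = 0.09). Both iFTn-R4 libraries lay below both iFTn-M4 libraries, but on the log scale the iFTn-R4 replicates were further from each other than replicate 1 was from iFTn-M4. Ciita, the class II transactivator, was at 7.78 and 5.79 CPM against 10.3 and 8.85 CPM and did not pass. The size of the class II difference depended on the iFTn-R4 library. The median was -0.96 without iFTn-R4 replicate 1 and -0.27 without iFTn-R4 replicate 2. Of 8 dendritic cell markers none passed in edgeR or DESeq2, with 3 at an unadjusted edgeR p under 0.05 and a median of -1.0, and their summed level was 45.4 to 45.8 CPM in iFTn-R4 and 54.2 to 54.4 CPM in iFTn-M4. Of 8 B and plasma cell markers Cd22 passed, at 2.95 and 2.93 CPM against 7.18 and 7.6 CPM, though not with an iFTn-M4 replicate left out, and the sum of the 8 was 9.51 to 11.3 CPM in iFTn-R4 and 17.4 to 17.8 CPM in iFTn-M4. The part of these cells in the class II values was not tested.

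**Figure D2:**
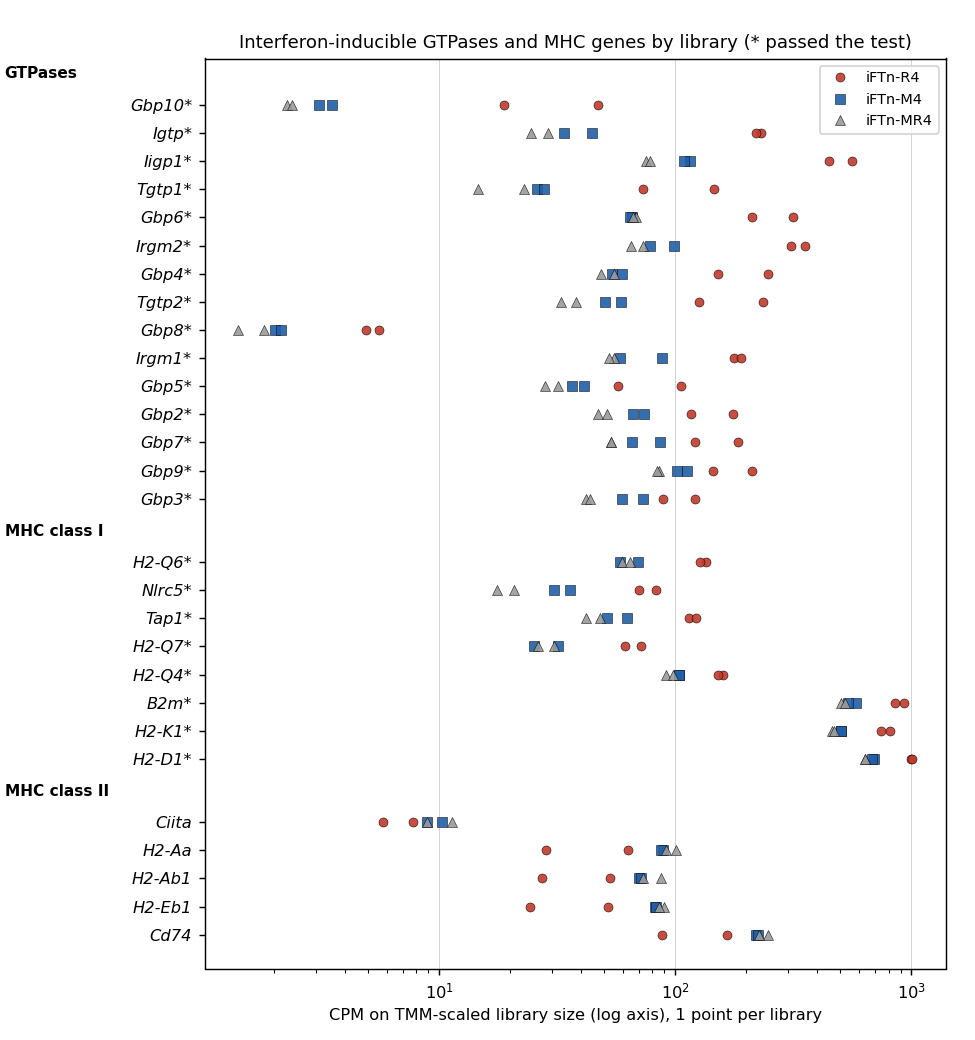
Level in CPM (log axis, 1 point per library) of the 15 interferon-inducible GTPases, the 8 class I genes with the lowest adjusted p and 5 class II genes in iFTn-R4, iFTn-M4 and iFTn-MR4. For every GTPase and class I gene shown both red points lie to the right of both blue points, and for the class II genes both lie to the left.

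Of 33 further interferon-response genes, 7 were higher and 0 lower, with a median log2 fold change of 0.46 and all 33 estimates above 0. Irf7, a regulator of interferon genes, was at 311 and 369 CPM in iFTn-R4 and 116 and 102 CPM in iFTn-M4 (1.64 ± 0.11, edgeR adjusted p = 0.000348). Irf1, another regulator, was at 84.1 and 86.8 CPM against 50.2 and 46.3 CPM. In both genes the groups did not overlap. Bst2, which tethers budding viruses, also passed at 80.6 and 98 CPM against 55.6 and 50.5 CPM (0.75 ± 0.11, edgeR adjusted p = 0.01). Isg15, a ubiquitin-like modifier, was at 37 and 44.4 CPM in iFTn-R4 and 35.3 and 24.1 CPM in iFTn-M4 (0.46 ± 0.17, edgeR adjusted p = 0.16), and Ifit3 at 94.7 and 137 CPM against 114 and 66.8 CPM (0.35 ± 0.24, edgeR adjusted p = 0.43). Neither passed, nor did Rsad2 at 0.50 or Oas2 at 0.36. The count of members called was 5 without iFTn-M4 replicate 1, 1 without iFTn-M4 replicate 2, 14 without iFTn-R4 replicate 1, and 4 with either iFTn-MR4 replicate left out. Of 11 T and NK cell markers, Gzma, a granzyme of killer cells, was higher at 7.4 and 5.39 CPM against 1.29 and 1.66 CPM and Gzmb at 5.33 and 2.99 CPM against 0.718 and 1.31 CPM, and neither passed with an iFTn-M4 replicate left out. The sum of the 11 markers was 19 to 38.8 CPM in iFTn-R4 and 14.5 to 15.8 CPM in iFTn-M4. Their median log2 fold change, 0.65, was -0.16 without iFTn-R4 replicate 1 and 1.14 without iFTn-R4 replicate 2. The part of T and NK cells in the interferon genes was not tested.

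On 1 scaling across the 8 libraries, the 15 GTPases summed to 2270 and 3110 CPM in iFTn-R4, 939 and 814 in iFTn-M4, 659 and 665 in iFTn-MR4 and 5370 and 6100 in PBS. The class I list summed to 4130 and 4210 CPM in iFTn-R4, 2870 and 2760 in iFTn-M4, 2560 and 2570 in iFTn-MR4, and 5410 and 6180 in PBS. For both lists iFTn-R4 lay between iFTn-M4 and PBS. This order did not hold for every list. Sarcomere genes summed to 54300 and 55500 CPM in iFTn-R4, below the 76700 and 79200 in iFTn-M4 and the 69300 and 71200 in PBS, and clock genes to 938 and 795 CPM in iFTn-R4, 1260 and 1190 in iFTn-M4 and 815 and 827 in PBS, where iFTn-R4 and PBS overlapped. PBS values come from a separate table, so its levels are set beside the others without a test.

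Monocyte and chemokine genes were among the larger rises. Ly6c2, which marks blood-derived inflammatory monocytes, was at 27 and 21.6 CPM in iFTn-R4 and 6.67 and 5.39 CPM in iFTn-M4 (2.01 ± 0.17, edgeR adjusted p = 0.0014), with counts split among copies of the Ly6 family. Plac8 was at 82 and 92.7 CPM in iFTn-R4 and 30.8 and 19.1 CPM in iFTn-M4 (1.81 ± 0.18, edgeR adjusted p = 0.0031). Chil3, a chitinase-like protein of myeloid cells, was at 78.2 and 168 CPM in iFTn-R4 and 25.8 and 24.6 CPM in iFTn-M4 (2.28 ± 0.41, edgeR adjusted p = 0.02). All iFTn-R4 libraries lay above all iFTn-M4 libraries for these genes, and the iFTn-R4 replicates differed by more than 2-fold in Chil3 alone. Ccl2 and Ccl7, which recruit monocytes through the receptor CCR2, were higher. Ccl7 was at 59.5 and 63.9 CPM in iFTn-R4 and 23.5 and 17.3 CPM in iFTn-M4 (1.60 ± 0.14, edgeR adjusted p = 0.0014) and Ccl2 at 58.7 and 75.8 CPM in iFTn-R4 and 27.7 and 20.4 CPM in iFTn-M4 (1.48 ± 0.18, edgeR adjusted p = 0.0062). The receptor gene Ccr2 did not pass, at a log2 fold change of -0.09. Of 16 CC chemokines 4 were higher and 0 lower. Of 13 CXC and CX3C chemokines 3 were higher and 0 lower, among them Cxcl9, a ligand induced by interferon gamma, at 21.5 and 33.4 CPM against 9.69 and 12.3 CPM. Without iFTn-M4 replicate 2, 1 CC chemokine and 0 CXC or CX3C chemokines passed, against 4 and 2 without iFTn-M4 replicate 1. With only the 4 libraries compared 1 CXC or CX3C chemokine passed. The median of that list was 0.628, and it was 0.605 without iFTn-R4 replicate 1 and 0.519 without iFTn-R4 replicate 2.

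Several markers of settled and phagocytic macrophages were lower. Of 13 resident macrophage markers 4 were lower, Csf1r, C1qa, C1qb and C1qc, and 1 was higher, Lyve1, which lymphatic endothelium also expresses. Csf1r, the receptor of the macrophage growth factor, was at 201 and 175 CPM in iFTn-R4 and 259.9 and 259.7 CPM in iFTn-M4 (-0.47 ± 0.09, edgeR adjusted p = 0.027). C1qc, a chain of the first complement component, was at 202 and 195 CPM against 273 and 261 CPM. Of 14 markers of infiltrating monocytes and macrophages 4 were higher, Ly6c2, Plac8, Chil3 and Spp1, and 5 were lower, Gpnmb, Ms4a7, Trem2, Cd68 and Lgals3. Gpnmb, a glycoprotein of lipid-laden macrophages, was at 90.8 and 134 CPM in iFTn-R4 and 215 and 244 CPM in iFTn-M4 (-1.03 ± 0.17, edgeR adjusted p = 0.015). Trem2, a lipid receptor, was at 30.4 and 23.1 CPM against 43.2 and 39.6 CPM. Neither gene overlapped between the groups, and the iFTn-MR4 libraries, at 136 and 117 CPM for Gpnmb, lay near iFTn-R4. Apoe, the apolipoprotein that macrophages secrete in quantity, at chromosome 7, bases 19696244 to 19701310 of GRCm38.p6, was at 624 and 568 CPM in iFTn-R4 and 1414 and 1389 CPM in iFTn-M4, a 2.35-fold lower level (-1.23 ± 0.11, edgeR adjusted p = 0.0014).

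The summed level of the 13 resident macrophage markers was 1430 to 1460 CPM in iFTn-R4 and 1680 to 1800 CPM in iFTn-M4. In whole tissue, fewer cells of a type and less RNA per cell cannot be told apart, and this holds for each cell marker here. With iFTn-M4 replicate 1 or replicate 2 left out, 0 of the 13 passed, with medians of -0.32 and -0.20 beside -0.29, and 0 passed on log2(TPM + 1) or with either iFTn-MR4 library left out. For the infiltrating list 2 were higher and 1 lower without iFTn-M4 replicate 1, 2 and 0 without iFTn-M4 replicate 2, and 4 and 2 with either iFTn-MR4 replicate left out.

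Of 14 neutrophil markers 5 were higher and 0 lower, with a median log2 fold change of 1.58, and their summed level was 266 to 272 CPM in iFTn-R4 and 86 to 136 CPM in iFTn-M4. S100a9, a calcium-binding protein of neutrophil cytosol, was at 36.7 and 25.9 CPM in iFTn-R4 and 12.5 and 3.8 CPM in iFTn-M4 (1.95 ± 0.40, edgeR adjusted p = 0.034). The iFTn-M4 replicates differed by more than 3-fold in this gene. Its partner S100a8 was at 21.6 and 18.7 CPM against 10.5 and 2.56 CPM and did not pass (edgeR adjusted p = 0.075). Il1r2, the decoy receptor for interleukin 1, was at 7.34 and 7.12 CPM in iFTn-R4 and 2.15 and 1.24 CPM in iFTn-M4 (2.09 ± 0.32, edgeR adjusted p = 0.012), and Il1rn, the interleukin 1 receptor antagonist, at 19.6 and 25.2 CPM against 9.47 and 9.33 CPM. Il1b itself was at 17.3 and 9.05 CPM against 6.89 and 3.18 CPM and Il6 at 3.26 and 1.26 CPM against 1.08 and 1.04 CPM, and neither passed. Lcn2, which binds bacterial iron carriers, was at 41.7 and 85.5 CPM in iFTn-R4 and 16.9 and 16.1 CPM in iFTn-M4, with replicate 2 the higher of the iFTn-R4 pair. Of the list, 2 markers passed without iFTn-M4 replicate 1 and 0 without iFTn-M4 replicate 2, where the median was 0.88, and 8 passed without iFTn-R4 replicate 2. The granule gene Ngp was at 1 count in total in iFTn-M4, and its fitted fold change is no bound. Ly6g and Camp, other defining markers, were not tested.

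**Figure D3:**
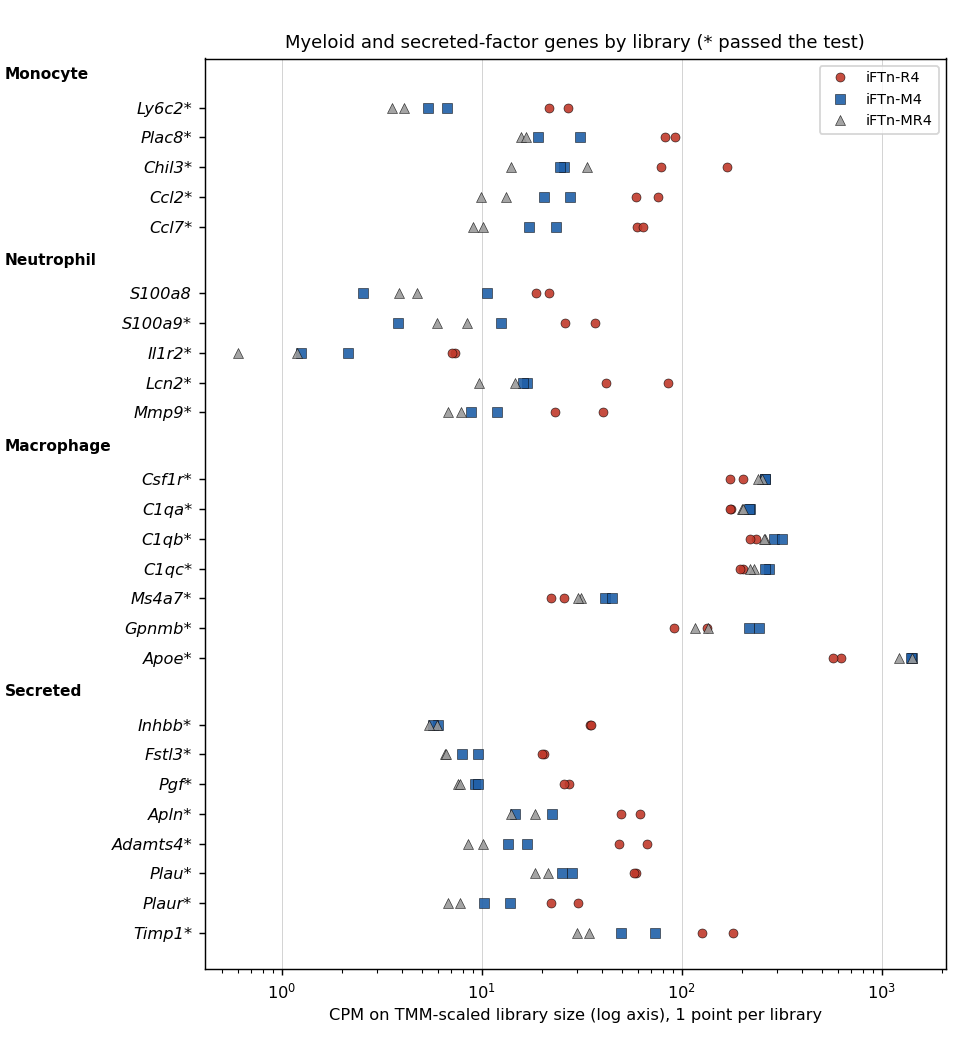
Level in CPM (log axis, 1 point per library) of monocyte, neutrophil, macrophage and secreted-factor genes in the 3 nanocage groups. Red iFTn-R4 points lie to the right of blue iFTn-M4 points for monocyte, neutrophil and secreted genes and to the left for the macrophage genes from Csf1r to Apoe.

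Inhbb, which encodes the beta B subunit of activin and inhibin, had the lowest adjusted p of any gene other than Gm4841. At chromosome 1, bases 119415463 to 119422248 of GRCm38.p6, it was at 34.6 and 35.1 CPM in iFTn-R4 and 6.03 and 5.67 CPM in iFTn-M4, a 5.95-fold higher level (2.57 ± 0.12, edgeR adjusted p = 6.11e-05). The iFTn-MR4 libraries were at 5.99 and 5.43 CPM, close to iFTn-M4. Inhba, the beta A subunit, was at 21.1 and 14.2 CPM in iFTn-R4 and 7.75 and 6.91 CPM in iFTn-M4 (1.27 ± 0.22, edgeR adjusted p = 0.019). Fstl3, a secreted protein that binds activin, was at 20.5 and 19.9 CPM in iFTn-R4 and 7.96 and 9.61 CPM in iFTn-M4 (1.2 ± 0.14, edgeR adjusted p = 0.0053). In these 3 genes both iFTn-R4 libraries lay above all 4 other nanocage libraries. Gdf15 and Bmp2, other ligands of the TGF-beta superfamily, were higher at 13.2 and 15.2 CPM against 4.95 and 7.4 CPM and 10.9 and 6.59 CPM against 3.16 and 2.7 CPM. Tgfb1 at 0.32, Tgfb2 at 0.45 and Tgfb3 at -0.42 did not pass, nor did the receptors. The list gave 6 higher and 0 lower of 22, and 6 higher and 1 lower in DESeq2. Without iFTn-M4 replicate 1 or replicate 2, 3 passed in each fit.

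Genes of plasminogen activation were higher in part. Plau, the urokinase that turns plasminogen into plasmin, was at 58.9 and 57.4 CPM in iFTn-R4 and 28.3 and 25.2 CPM in iFTn-M4 (1.12 ± 0.10, edgeR adjusted p = 0.002), and its receptor Plaur at 30.4 and 22.2 CPM in iFTn-R4 and 13.8 and 10.2 CPM in iFTn-M4 (1.13 ± 0.19, edgeR adjusted p = 0.016). The tissue activator Plat was at 75.5 and 70 CPM against 52 and 51.8 CPM. Of the coagulation and plasminogen list 4 of 17 were higher and 0 lower, with 3 left without iFTn-M4 replicate 1 and 2 without iFTn-M4 replicate 2. Of 26 matrix proteases and inhibitors 7 were higher and 1 lower. Adamts4, which cleaves proteoglycan cores, was at 67.1 and 48.4 CPM in iFTn-R4 and 16.9 and 13.5 CPM in iFTn-M4 (1.93 ± 0.18, edgeR adjusted p = 0.002), Mmp9 at 40.3 and 23.1 CPM against 11.8 and 8.78 CPM and the inhibitor Timp1 at 180.2 and 126 CPM in iFTn-R4 and 73.3 and 49.8 CPM in iFTn-M4 (1.32 ± 0.20, edgeR adjusted p = 0.013). Timp2 was the lower gene, at 226 and 207 CPM against 303 and 326 CPM. Leaving out iFTn-M4 replicate 1 left 3 protease genes higher and iFTn-M4 replicate 2 left 1.

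Some genes of fibroblast matrix were lower and some matricellular genes were higher. Aspn, a proteoglycan, was at 79.4 and 74.4 CPM in iFTn-R4 and 123 and 135 CPM in iFTn-M4 (-0.75 ± 0.08, edgeR adjusted p = 0.0042), and Dpt, a fibril-binding protein, at 202 and 202 CPM in iFTn-R4 and 316 and 331 CPM in iFTn-M4 (-0.68 ± 0.08, edgeR adjusted p = 0.0062). Lum, Ogn, Mfap4 and Ccn3 passed as lower too. Ccn2, connective tissue growth factor, was at 313 and 384 CPM in iFTn-R4 and 180.2 and 189 CPM in iFTn-M4 (0.92 ± 0.11, edgeR adjusted p = 0.0062), and Spp1, osteopontin, at 713 and 895 CPM against 469 and 414 CPM. Together 3 of 31 members were higher and 6 lower, 0 and 2 without iFTn-M4 replicate 1 and 0 and 0 without iFTn-M4 replicate 2. Fibrillar collagens did not pass. Col1a1 was at 3549.6 and 2219 CPM against 3757 and 2809 CPM and Col3a1 at 5848 and 4289 CPM against 6949.5 and 5624 CPM, with the iFTn-R4 replicates further apart than the group means. Postn was at 925 and 727 CPM against 1134 and 1207 CPM and Acta2 at 303 and 163 CPM against 254 and 208 CPM, and neither passed. The basement membrane chain gene Col4a1 was higher at 1803 and 1756 CPM against 1205 and 1244 CPM, and Col4a4 and Col6a6 were lower, so 1 of 27 collagen genes was higher and 2 lower. None of the 3 passed with an iFTn-M4 replicate left out. With only the 4 libraries compared 0 collagen genes were higher and 1 lower. The collagen median was -0.20, and it was -0.46 without iFTn-R4 replicate 1 and -0.02 without iFTn-R4 replicate 2. Of 12 fibroblast markers 2 were lower, Lum and Dpt, with 1 left without iFTn-M4 replicate 1 and 0 without iFTn-M4 replicate 2, and the sum was 7800 to 10200 CPM in iFTn-R4 and 10300 to 11300 CPM in iFTn-M4. Ptn, a heparin-binding growth factor, was at 22.4 and 14.8 CPM in iFTn-R4 and 57.8 and 50.7 CPM in iFTn-M4 (-1.54 ± 0.19, edgeR adjusted p = 0.0062), and Nrn1, a membrane-anchored neuritin, at 3.39 and 2.79 CPM against 12.5 and 8.09 CPM (-1.73 ± 0.27, edgeR adjusted p = 0.013).

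Angiogenic factor genes were higher in 6 of 22 cases and lower in 0. Pgf, placental growth factor, was at 27.2 and 25.7 CPM in iFTn-R4 and 9.26 and 9.54 CPM in iFTn-M4 (1.49 ± 0.11, edgeR adjusted p = 0.000872). Apln, the ligand of the apelin receptor, was at 61.6 and 49.6 CPM in iFTn-R4 and 22.4 and 14.7 CPM in iFTn-M4 (1.59 ± 0.20, edgeR adjusted p = 0.0065). Angpt2, which opposes vessel-stabilising angiopoietin signalling, was at 21.3 and 15 CPM against 10.5 and 9.26 CPM. Each of the 3 had both iFTn-R4 libraries on top. Vegfa, Vegfb, Flt1 and Kdr did not pass, with log2 fold changes from -0.31 to -0.01. Of 12 endothelial markers Pecam1 at 435 and 422 CPM against 313 and 327 CPM and Cldn5 at 26.7 and 40.6 CPM against 19.7 and 19.5 CPM were higher, and the sum was 2940 to 2980 CPM in iFTn-R4 and 2740 to 2770 CPM in iFTn-M4. Neither passed with an iFTn-M4 or iFTn-MR4 replicate left out. Without iFTn-M4 replicate 1, 2 of the angiogenic genes passed, and without iFTn-M4 replicate 2 only Pgf did. With either iFTn-MR4 replicate left out 2 passed. Igf1 was lower at 42.5 and 36.1 CPM in iFTn-R4 and 76.9 and 69.7 CPM in iFTn-M4 (-0.90 ± 0.12, edgeR adjusted p = 0.0081), whereas Igf2 at 164 and 122 CPM against 56 and 89.5 CPM and the binding protein gene Igfbp3 at 165 and 109 CPM against 54.2 and 66.5 CPM were higher. With only the 4 libraries compared, and on log2(TPM + 1), 1 of the 10 insulin-like growth factor genes was higher and 1 lower.

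Major genes of heart muscle contraction were lower. Myh6 was at 14190.0 and 11508 CPM in iFTn-R4 and 23570.0 and 26233 CPM in iFTn-M4 (-0.95 ± 0.14, edgeR adjusted p = 0.012). Both it and its paralog Myh7 carry split counts, so single values are uncertain. Myl2, the ventricular regulatory light chain, was at 3397 and 3134 CPM in iFTn-R4 and 5599.5 and 5182 CPM in iFTn-M4 (-0.72 ± 0.11, edgeR adjusted p = 0.011). Tnni3, cardiac troponin I, was at 1688 and 1781 CPM in iFTn-R4 and 2716 and 2649 CPM in iFTn-M4 (-0.63 ± 0.10, edgeR adjusted p = 0.016). The groups did not overlap in any of the 3. Myl3 and Actc1 also passed, so 5 of 21 sarcomere genes were lower and 0 higher, with a median of -0.27. Ttn at -0.15, Actn2 at -0.12 and Des at 0.26 did not pass. The fetal isoform Myh7 was at 3525 and 4151 CPM against 3076 and 2275 CPM and did not pass (edgeR adjusted p = 0.13). Of 17 calcium-handling genes 3 were lower, Hrc, Jph2 and S100a1, and Hrc, a calcium-binding protein of the sarcoplasmic reticulum, was at 591 and 588 CPM in iFTn-R4 and 865 and 903 CPM in iFTn-M4. Sums over the 10 cardiomyocyte markers were 37500 to 37900 CPM in iFTn-R4 and 57500 to 60200 CPM in iFTn-M4, and 65800 to 67000 in iFTn-MR4. Myh6, with its split counts, is the largest part of these sums. The median log2 fold change of the 10 markers was -0.415, with 5 lower and 0 higher. With either iFTn-M4 replicate left out, 0 calcium-handling genes passed, and with either iFTn-MR4 replicate left out 1 did. With only the 4 libraries compared, 0 sarcomere genes and 0 of the 10 cardiomyocyte markers passed, so the calls of Myh6, Myl2 and Tnni3 were lost. The sarcomere median was -0.33 and -0.22 without iFTn-M4 replicate 1 and 2, and -0.17 and -0.35 without iFTn-R4 replicate 1 and 2.

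Some wall-stress genes were higher. Ankrd1, a stretch-responsive ankyrin repeat protein, was at 2878 and 3455 CPM in iFTn-R4 and 1896 and 1882 CPM in iFTn-M4 (0.75 ± 0.11, edgeR adjusted p = 0.011). Xirp2, of the intercalated disc, was at 942 and 1034 CPM in iFTn-R4 and 584 and 626 CPM in iFTn-M4 (0.71 ± 0.11, edgeR adjusted p = 0.012), and the filamin gene Flnc at 515 and 571 CPM against 362 and 375 CPM. Of the list 6 of 16 were higher and 1 lower, Tnnt1 at 6.4 and 6.25 CPM against 13.9 and 11.3 CPM. The natriuretic peptide genes did not pass. Nppa was at 1071 and 1045 CPM against 941 and 935 CPM and Nppb at 269 and 317 CPM against 244 and 234 CPM, while the iFTn-MR4 libraries were at 352 and 284 CPM for Nppa. With an iFTn-M4 replicate left out, 0 of the 16 passed in either fit, with medians of 0.44 and 0.37.

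Oxidative metabolism genes shared a small downward estimate with few calls. Of 37 complex I subunits 2 were lower and 0 higher, a share of 5.41% beside 4.61% over all genes, with a median of -0.28. Of 36 subunits of complexes III to V 3 were lower, with a median of -0.27, and Cox6a2, the muscle isoform of a cytochrome oxidase subunit, was at 588 and 639.8 CPM in iFTn-R4 and 849.5 and 868 CPM in iFTn-M4. Pdhb, a subunit of pyruvate dehydrogenase, was at 287 and 330.5 CPM against 445 and 424 CPM, and Oxct1, which starts ketone body use, at 585 and 545 CPM against 797 and 840.3 CPM. Without iFTn-R4 replicate 2, 26 complex I genes and 26 of complexes III to V passed as lower, and with either iFTn-M4 or iFTn-MR4 replicate left out 0 of either list did. Without iFTn-R4 replicate 1, 1 of each did. Fatty acid oxidation genes had a median of -0.01 over 30 members, and Angptl4, the inhibitor of lipoprotein lipase, was the one called, at 63.6 and 142 CPM in iFTn-R4 and 22.9 and 15.8 CPM in iFTn-M4 (2.41 ± 0.35, edgeR adjusted p = 0.011). Without iFTn-R4 replicate 1, 10 of these genes passed as higher, without iFTn-R4 replicate 2, 1 was higher and 7 lower, and with either iFTn-M4 replicate left out 0 did. In glucose use the isoforms parted. The ubiquitous transporter gene Slc2a1 was higher at 46.8 and 43 CPM in iFTn-R4 and 25 and 25.6 CPM in iFTn-M4 (0.83 ± 0.10, edgeR adjusted p = 0.0062), and the muscle and fat transporter gene Slc2a4 lower at 213 and 203 CPM in iFTn-R4 and 303 and 306 CPM in iFTn-M4 (-0.55 ± 0.08, edgeR adjusted p = 0.01). Eno1 was higher at 483 and 419 CPM against 328 and 316 CPM and the muscle isoform gene Eno3 lower at 798 and 799 CPM against 1130.3 and 1184 CPM. Pgam1 and Pgam2 parted the same way. Slc16a3, a lactate exporter, was at 51.2 and 40.4 CPM against 19.7 and 14.7 CPM. The list gave 6 higher and 3 lower of 23, 1 and 0 without iFTn-M4 replicate 1, 0 and 0 without iFTn-M4 replicate 2, and 3 and 1 with either iFTn-MR4 replicate left out.

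**Figure D4:**
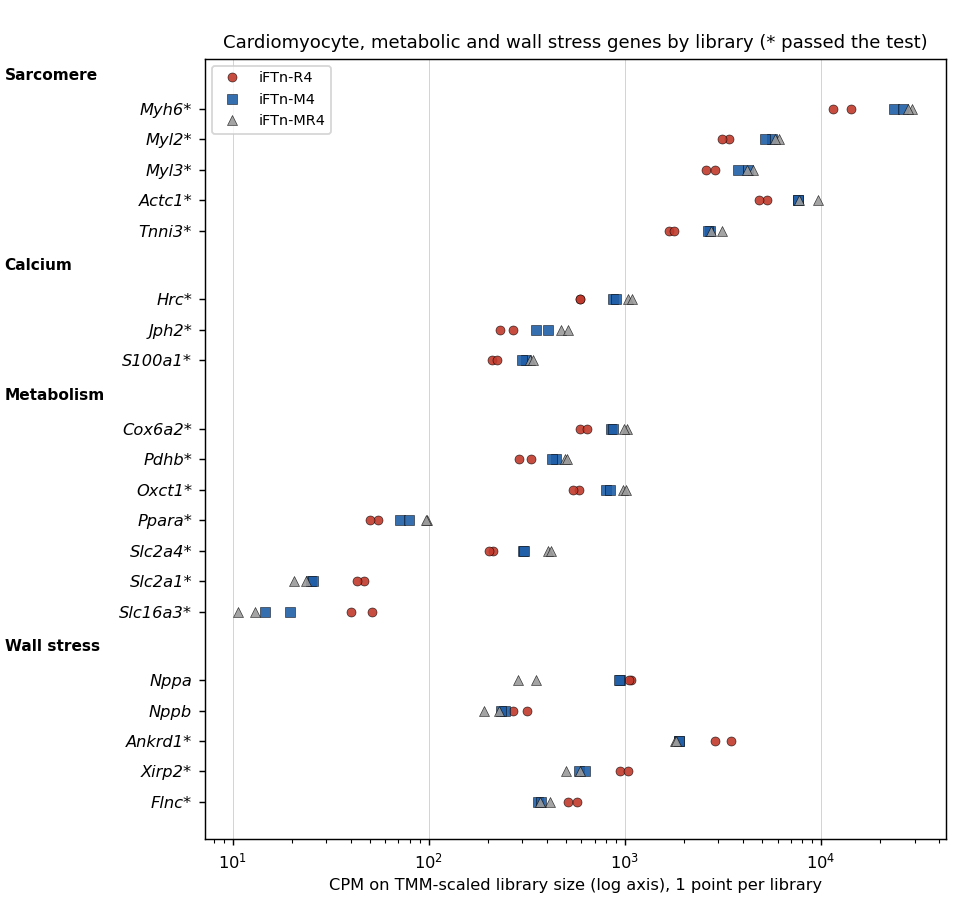
Level in CPM (log axis, 1 point per library) of sarcomere, calcium-handling, metabolic and wall-stress genes in the 3 nanocage groups. Red iFTn-R4 points lie to the left of blue iFTn-M4 points from Myh6 down to Slc2a4 and to the right for Slc2a1, Slc16a3, Ankrd1, Xirp2 and Flnc.

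Genes for protein folding in the endoplasmic reticulum were higher in 10 of 21 cases and lower in 0, with a median log2 fold change of 0.34. Pdia4, a disulfide isomerase, was at 153 and 147 CPM in iFTn-R4 and 96.7 and 93.9 CPM in iFTn-M4 (0.66 ± 0.08, edgeR adjusted p = 0.0062). Creld2, a secreted stress protein, was at 32.7 and 30.4 CPM in iFTn-R4 and 17.8 and 16.6 CPM in iFTn-M4 (0.88 ± 0.11, edgeR adjusted p = 0.0068), and the chaperone gene Hyou1 at 139 and 124 CPM against 82.1 and 90.9 CPM. Both iFTn-R4 libraries were on top in each. Hspa5, the chaperone BiP, had a log2 fold change of 0.43 ± 0.11 and did not pass (edgeR adjusted p = 0.062), nor did Herpud1 at 0.05 or Dnajb9 at -0.07. With an iFTn-M4 replicate left out 0 of the 21 passed in either fit, at medians of 0.37 and 0.35, and with either iFTn-MR4 replicate left out 5 did. Of 21 ATF4 targets 4 were higher, Asns, Mthfd2, Gdf15 and Slc7a5, and Ddit3 at 0.40 and Trib3 at 0.11 did not pass. With either iFTn-M4 replicate left out 0 ATF4 targets passed, and without iFTn-MR4 replicate 2, 2 did. The ER stress element, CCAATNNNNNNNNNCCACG, bound by the factor ATF6, is marked in capitals on either strand in the 3 promoters below. They are from RefSeq on GRCm38.p6 and were chosen because their genes passed and hold a match. The regions are chr8:84846932-84847101 (-), chr15:88819476-88819645 (+) and chr12:17266419-17266588 (+).
Calr: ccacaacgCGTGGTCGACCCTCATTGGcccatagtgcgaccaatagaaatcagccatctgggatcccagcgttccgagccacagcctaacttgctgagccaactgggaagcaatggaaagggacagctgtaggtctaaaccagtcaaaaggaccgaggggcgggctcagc
Creld2: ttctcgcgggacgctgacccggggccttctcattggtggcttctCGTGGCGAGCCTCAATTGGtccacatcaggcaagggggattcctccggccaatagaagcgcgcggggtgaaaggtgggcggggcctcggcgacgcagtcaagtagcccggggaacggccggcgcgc
Pdia6: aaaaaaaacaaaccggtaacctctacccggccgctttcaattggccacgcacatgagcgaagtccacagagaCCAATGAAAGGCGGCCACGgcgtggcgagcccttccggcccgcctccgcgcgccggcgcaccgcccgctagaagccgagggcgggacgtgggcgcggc

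This element lay in 8 of the 18 unfolded protein response genes with a promoter entry and in 17 of all 11013. Calr, Creld2, Pdia6 and Hsp90b1 passed, and the other 4 of the 8, among them Hspa5 and Canx, did not. Of the genes called higher 4 of 267 held it, and of the genes called lower 0 of 208 held it.

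Superoxide removal is the activity the series title names for the particles, and the heart's own genes for removing superoxide and peroxide mostly did not pass. Sod1, the cytosolic superoxide dismutase, was at 163 and 179.7 CPM against 188 and 179 CPM, the mitochondrial Sod2 at 323 and 365 CPM against 445 and 400.3 CPM and the extracellular Sod3 at 84.4 and 90.7 CPM against 71.1 and 67.7 CPM. Cat, catalase, was at 174 and 272 CPM against 195 and 211 CPM, with more spread in iFTn-R4 than between the groups. Of 22 genes 3 were higher and 0 lower, a share of 13.6% beside 4.61% over all genes. Txnrd1, thioredoxin reductase, was at 146 and 120.4 CPM in iFTn-R4 and 90 and 81.5 CPM in iFTn-M4 (0.64 ± 0.11, edgeR adjusted p = 0.018), Gsr, glutathione reductase, at 59.5 and 47.7 CPM against 34.9 and 31.2 CPM and Srxn1, sulfiredoxin, at 46.3 and 50.6 CPM against 32.2 and 38.2 CPM. The reductases use NADPH to restore thiols, and sulfiredoxin repairs overoxidised peroxiredoxins. Hmox1 at 297 and 182 CPM against 227 and 157 CPM and Nqo1 at 36.6 and 47.2 CPM against 39.8 and 43.7 CPM, other NRF2 targets, did not pass. Of 21 NRF2 targets 3 were higher and 0 lower, a share of 14.3%, with a median log2 fold change of 0.25. With only the 4 libraries compared 0 of the 21 passed. Among 9 NADPH oxidase genes 0 passed in edgeR or DESeq2, with 3 at an unadjusted edgeR p under 0.05, and Nox4 was at 4.83 and 6.72 CPM against 3.95 and 3.46 CPM and Cybb at 103 and 122 CPM against 148 and 119 CPM. Ferritin genes did not pass, with Fth1 at 1277 and 1645 CPM against 1691 and 1722 CPM and Ftl1 at 1326 and 1181 CPM against 1821 and 1495 CPM. Without iFTn-M4 replicate 1 or 2, 0 of the 22 passed, with either iFTn-MR4 replicate left out 1 did, and without iFTn-R4 replicate 1, 6 did.

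Clock-controlled genes differed in both directions. Per3 was at 39.9 and 31.3 CPM in iFTn-R4 and 79.8 and 58.8 CPM in iFTn-M4 (-0.96 ± 0.16, edgeR adjusted p = 0.018) and Hlf, an output transcription factor, at 23.4 and 18.5 CPM in iFTn-R4 and 38.7 and 33.1 CPM in iFTn-M4 (-0.77 ± 0.13, edgeR adjusted p = 0.016). Nfil3, which opposes Hlf at the same sites, was at 18.1 and 23.7 CPM in iFTn-R4 and 10.6 and 10.3 CPM in iFTn-M4 (1.0 ± 0.15, edgeR adjusted p = 0.012). Per1, Nr1d2 and Tef were also lower, giving 5 lower and 1 higher of 19, and Dbp at -1.48 and Arntl at 0.68 did not pass. None of the 5 lower genes passed on log2(TPM + 1), and with either iFTn-M4 replicate left out 0 passed. The labels give no hour of sampling. Among 15 glucocorticoid targets, which overlap this list in Per1, Fkbp5, Lcn2, Mt2, Angptl4 and Cdkn1a were higher and Per1, Klf9 and Sgk1 lower. Fkbp5, a chaperone of the receptor, was at 54.6 and 69.1 CPM against 34.8 and 35.9 CPM and Klf9, a transcription factor, at 88 and 88.8 CPM against 126 and 148 CPM. Mt2 was at 66.6 and 156 CPM against 36.6 and 36.2 CPM, so that iFTn-R4 replicate 1 lay nearer to iFTn-M4 than to replicate 2. Without iFTn-M4 replicate 1, 0 glucocorticoid targets were higher and 1 lower, and without iFTn-M4 replicate 2, 0 passed.

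Values of proliferation genes depended on the iFTn-R4 replicate. None of 28 mitosis genes passed in edgeR or DESeq2, 5 had an unadjusted edgeR p under 0.05, and the median was 0.41. Without iFTn-R4 replicate 2, 19 were higher at a median of 0.71, and without iFTn-R4 replicate 1, 0 were at a median of 0.03. For DNA replication 2 of 23 were higher, Mcm3 and Mcm4, against 15 without iFTn-R4 replicate 2 and 0 with any other single library left out. Cytosolic ribosomal protein genes gave 0 of 63 in edgeR and in DESeq2, 2 at an unadjusted edgeR p under 0.05, and a median of 0.08. Among 8 erythroid and platelet markers 0 passed in either tool and 5 had an unadjusted edgeR p under 0.05, with a median of -1.45 and a sum of 275 to 496 CPM in iFTn-R4 and 775 to 1180 CPM in iFTn-M4.

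**Figure D5:**
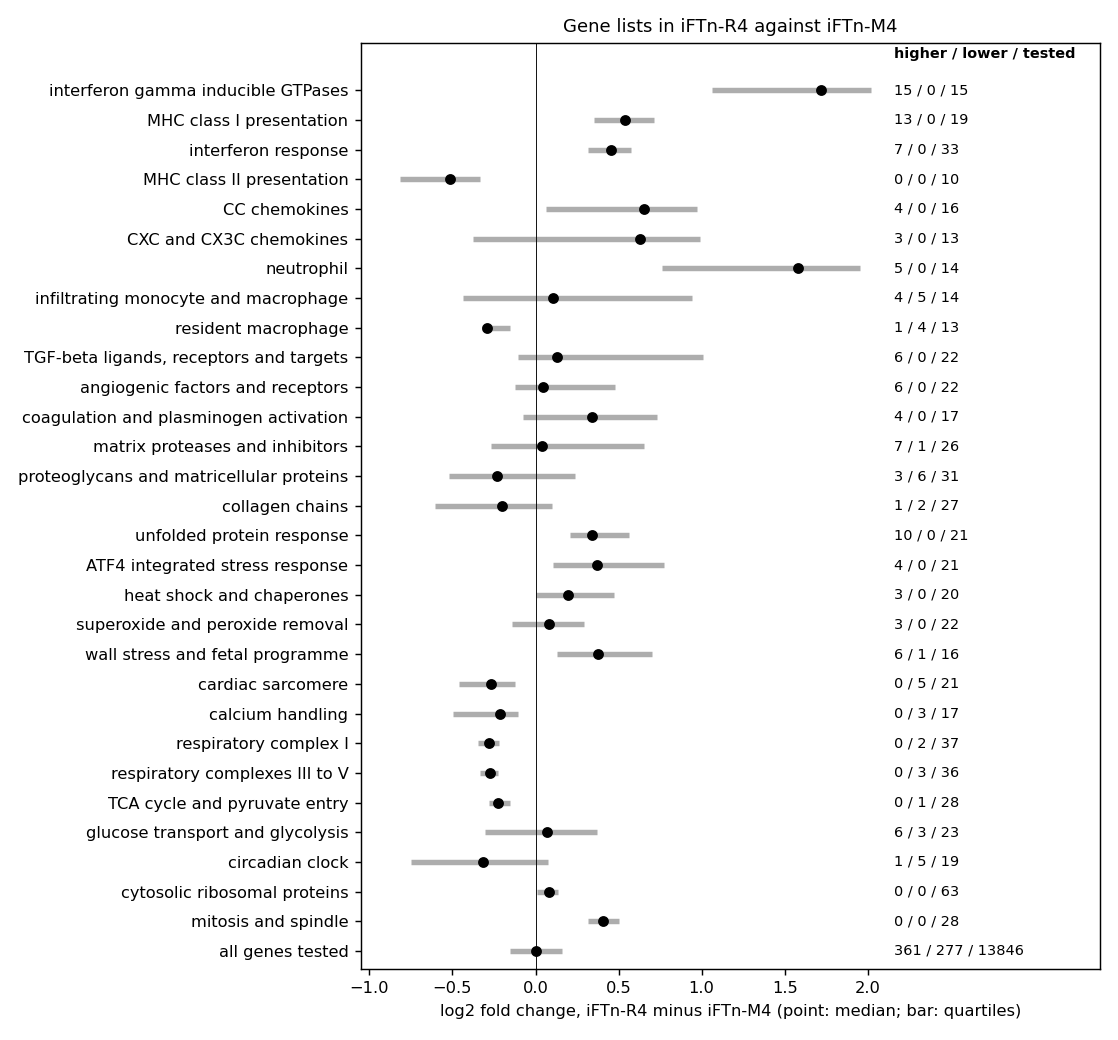
Median (point) and quartiles (bar) of the log2 fold change of tested members of 29 gene lists, with all genes tested in the last line, and the number of members higher, lower and tested at the right. The GTPases and neutrophil markers lie furthest to the right, and MHC class II genes furthest to the left.

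The genes that only the nanocage table holds contribute little. Of the 1093, 634 had a count in an iFTn-R4 or iFTn-M4 library, with a median total over the 6 nanocage libraries of 1 count and at most 95, and 2 passed the filter. Xntrpc had 17.1 and 25.6 expected counts in iFTn-M4 and 0 in the iFTn-R4 and iFTn-MR4 libraries. Against the mean floor of 3 counts per iFTn-R4 library, 0.194 CPM on the TMM scale, this is at least 7.73-fold lower in iFTn-R4 (edgeR adjusted p = 0.018). Its fractional counts show that reads were shared with another gene, so the value is uncertain. Duxbl3 had 0 and 9.08 counts in iFTn-R4 and 6.54 and 12.1 in iFTn-M4, and did not pass.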

How the data were processed

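Per the submitters' processing notes, HISAT2 2.1.0, Bowtie2 2.2.5 and RSEM 1.2.8 processed the reads on the build GRCm38.p6. Per gene, the authors deposited expected counts (from RSEM), FPKM and TPM values, in 1 table for the nanocage libraries and 1 for PBS. The authors' FPKM values were not used here. The library kit is not stated to keep strand. Fractional values, off a whole number by more than 1e-09, made up 4.85% of the table and touched 1273 genes, which are marked as split. Counts were rounded, filtered (filterByExpr) and fitted with edgeR 4.0.16 in R 4.3.3 over the 6 nanocage libraries, with TMM scaling and Benjamini-Hochberg adjusted 2-sided p at a threshold of 0.05. The biological coefficient of variation was 8.71%, with 3 residual and 5.59 prior degrees of freedom. Alternatives used DESeq2 1.42.0 and limma 3.58.1. The fit was tested on simulated data. A gene without a count lies below 0.188 to 0.227 CPM on the TMM scale (3 counts, counting error only). The labels state no pairing of samples by replicate number, and the main fit used none.

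Named genes passed the test with at least 5 CPM in the higher group and groups apart, and were the 10 largest rises and falls, up to 4 per list with at least 3 such members, and a set of oxidant, stress and matrix genes given whatever their test. Other list members were named after their values were seen. Members and the 79 lists were chosen with earlier results of these data known. Motifs were sought in the 250 bases before RefSeq starts. Columns of every deposited library had a use. Some members of the lists are not reported here by name.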

Additional observations from a re-analysis of the deposited data

How the results depend on the processing

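The 638 genes became 636 with DESeq2 size factors in edgeR, 641 with library size alone, 795 with no filter, 695 with DESeq2, 827 with all 8 libraries and 227 (152 higher, 75 lower) with only the 4 libraries compared. Limma on log2(TPM + 1) gave 502 with 103 lower, and on log2(TPM + 0.1) 461 with 94 lower and 367 higher. Leaving out 1 library gave 32 to 1490 genes in all, 28 to 899 higher and 4 to 591 lower. The lone library of an arm is then assumed to vary like the other groups. For the lists that range was 5 to 15 GTPases, 1 to 14 class I, 1 to 14 interferon response, 0 to 13 unfolded protein response, 0 to 8 neutrophil, 0 to 11 sarcomere (lower) and 0 to 8 clock genes (lower), and 0 to 2 genes absent from the PBS table. With only the 4 libraries compared, 8 class I, 4 interferon response, 5 unfolded protein response, 0 sarcomere and 1 clock genes passed. Neutrophil markers numbered 8 with no filter. Sarcomere genes lower numbered 8 in DESeq2, 3 on log2(TPM + 1) and 2 on log2(TPM + 0.1), and clock genes 0 on both TPM scales. With all 8 libraries 0 genes absent from the PBS table could be called, as that fit holds shared genes. The cause of the other changes was not tested. With the replicate number as a block, 640 genes passed, 557 of them in common, and 8 neutrophil markers. Deviations of same-numbered replicates correlated at 0.131, 0.0825 and -0.0113 between group pairs. The labels state no pairing, and these values cannot show whether same-numbered libraries were handled together. No named gene past the threshold changed sign under any of these settings. Of the 156 genes the rule named, 8 that did not pass had values on both sides of 0, among them Cat, Acta2, Hmox1, Nqo1, Sod1 and Col1a1.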
